A study of Equus caballus with 9 samples.

Results

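A set of 30 genes was higher in every adipogenic and every chondrogenic library of horse bone marrow stromal cells than in every undifferentiated one, by a margin of at least 1.5-fold. They are 30 of the 13571 genes that passed a filter on low counts (edgeR filterByExpr by group), out of 30371 gene IDs in all. Each gene's level is given in CPM, the usual depth-corrected unit of read counts. Library totals were first adjusted by TMM, that is, by a trimmed mean of ratios between libraries. A gene was taken when its lowest CPM over the 6 differentiated libraries was at least 1.5 times its highest CPM in the 3 undifferentiated ones, and when its mean was at least 1 CPM in either differentiated group. The members were thus chosen by the CPM values of all 9 libraries, and every difference from the undifferentiated cells is given below as a description with no test. Members had to pass the filter on low counts, and a gene near 0 in undifferentiated cells could pass it only through the groups in which it was high. A further 2 genes met the inequality only because 0 is 1.5 times 0. Both were at 0 in the undifferentiated libraries and in CDM replicate 2, so they were not higher in every differentiated library and were left out. With library totals as the only scaling, 7 of the 30 met the rule.

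The study sequenced polyadenylated RNA of equine mesenchymal stromal cells (MSCs) grown from bone marrow. Libraries were made from cultures left undifferentiated (MSC), from adipogenic cultures (ADM) and from chondrogenic cultures (CDM), 3 of each. The submitters checked the differentiated cells by qPCR, cytometry and staining. Media, days of culture, number of horses, their age and sex, and any link between replicates of different groups are not given here. Nothing says that the 3 libraries of a group came from separate cultures, so a p-value below covers no more than library-to-library spread, part or all of which may be technical. Reads assigned to genes numbered 17260899 to 39331930 per library. CDM replicate 2 stood apart, with the fewest gene counts. In it 36.4% of reads were assigned to no gene, against 24.4% to 30.2% in the others. Its TMM factor was 0.525 against 0.904 to 1.41 elsewhere. The MSC libraries also differed, with factors of 1.30, 1.41 and 0.922 in replicates 1, 2 and 3. A higher factor lowers the levels of a library.

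Bone marrow MSCs are a plastic-adherent stromal population that can form fat, cartilage and bone cells in culture. Adipogenesis is driven by the nuclear receptor PPARG together with C/EBP factors and ends in cells that store triglyceride. Chondrogenesis is driven by SOX9 and ends in cells that lay down type II collagen and aggrecan. The files give Ensembl gene IDs without names, and 0 of the 30371 IDs matched the gene table used here. The lineage markers could therefore not be looked up, the labels of the groups could not be checked against them, and no member can be assigned to a pathway or given a function. Members are numbered 1 to 30 below in falling order of the ratio of their lowest ADM or CDM level to their highest MSC level, and 6 of them are also given by ID. Gene lengths were not used, so levels are compared between libraries and not between genes.

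Apart from member 1, which had no MSC reads, the members' ratio of group means ran from 1.90 to 97.1 for ADM over MSC, with a median of 7.82. For CDM over MSC it ran from 2.0 to 79.2, with a median of 4.29. Fitted log2 folds had a median of 2.97 over the 30 members for ADM and 2.15 for CDM, against -0.03 and 0.04 over all 13571 genes. The members' medians were the same with member 1 at the lower bound given below for it. In a bulk library, a lower level cannot be told apart from a smaller share of cells that express the gene. The margin of 1.5-fold was passed narrowly by most members: the ratio of lowest differentiated to highest MSC level had a median of 1.74 and was at least 2 in 9 members, counting member 1. All 6 differentiated libraries lay above all 3 MSC libraries in 214 genes (1.58% of those tested), of which the 30 members are the ones with the margin and the minimum level. The mirrored condition, every MSC library at least 1.5 times every differentiated one with a mean of at least 1 CPM in MSC, held for 34 genes.

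**Figure D1:**
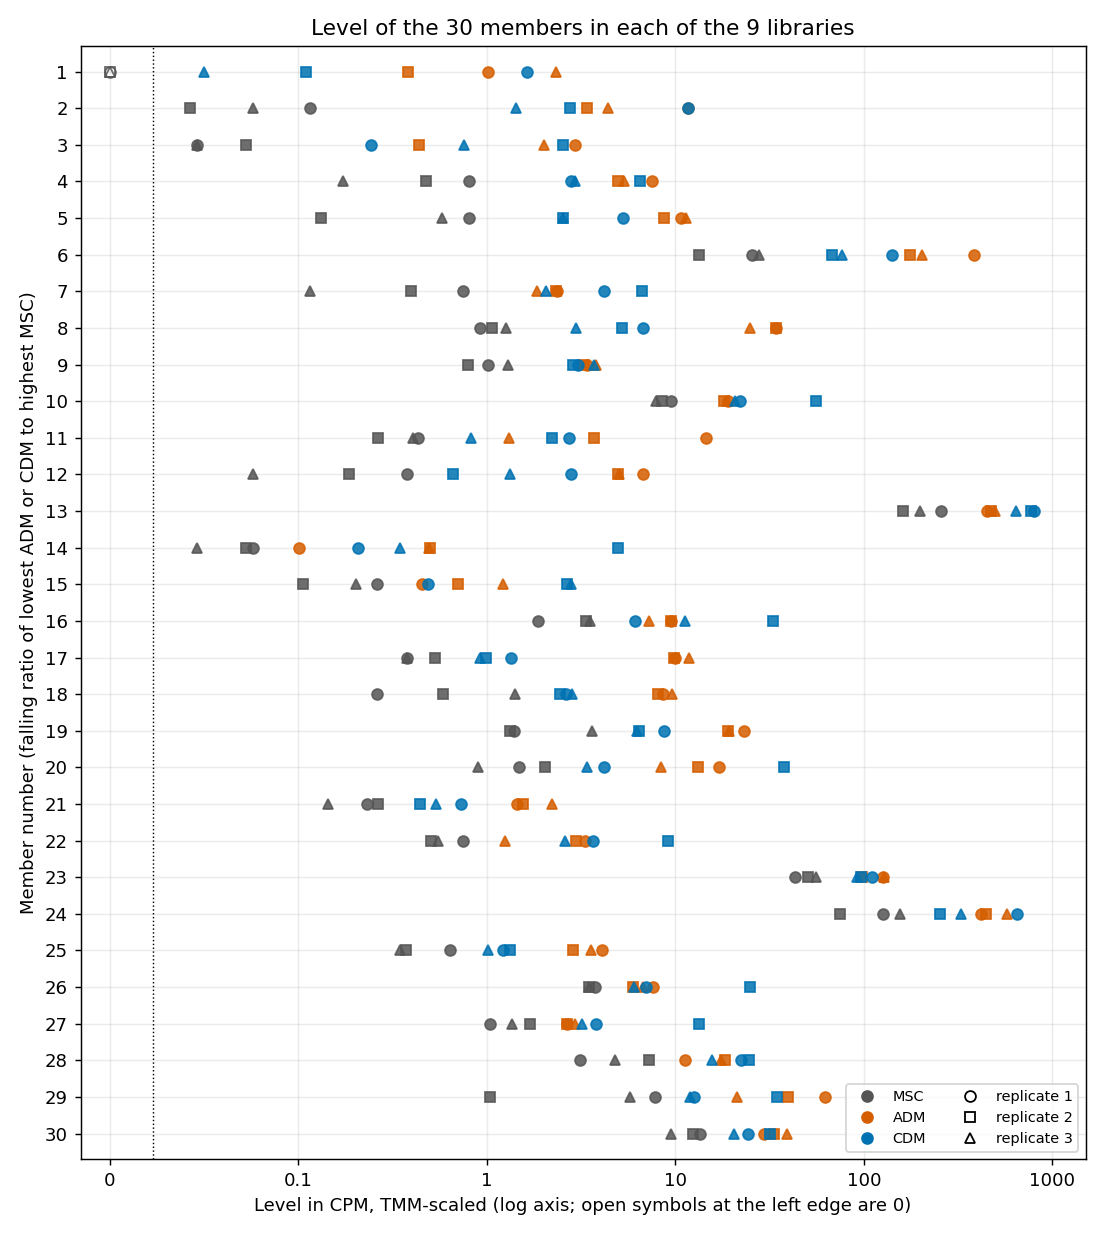
Level of each of the 30 members (rows) in CPM on a log axis, 1 symbol per library, with grey for MSC, orange for ADM, blue for CDM and the shape for the replicate number; open symbols left of the dotted line are 0. The grey symbols lie left of all coloured ones in every row because the members were chosen that way, and the orange symbols lie right of all blue ones in 9 rows.

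The members just inside the threshold were members 29 and 30, with ratios of 1.53 and 1.52. Just outside it lay a gene with a ratio of 1.499, at 0.0289 to 0.116 CPM in MSC and 0.173 to 25.2 CPM in the differentiated libraries. The next had a ratio of 1.49, at 534 to 834 CPM in MSC and 1239 to 2582 CPM in the differentiated libraries.

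Members 1 to 3 were close to absent in undifferentiated cells, as was member 14, described further below. Member 1 (ENSECAG00000036494) had 0 counts in all 3 MSC libraries. It was at 1.01, 0.380 and 2.34 CPM in ADM replicates 1, 2 and 3, and at 1.63, 0.11 and 0.0317 CPM in CDM replicates 1, 2 and 3. The last 2 of these values are 1 count each, so this gene's place among the members rests on single reads. A count of 0 in MSC allows up to 3 counts over the group, or 0.0280 CPM (counting error only), against which the pooled ADM level of 1.19 CPM was at least 42.4-fold higher. The pooled CDM level of 0.705 CPM was at least 25.1-fold higher, but CDM replicates 2 and 3 alone, with 2 counts, were under the 3-count limit and give no fold. Member 1 was lost from the set when ADM replicate 3 was left out.

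Member 2 (ENSECAG00000039617) had the widest measured gap between the groups. It was at 0.116, 0.0265 and 0.0577 CPM in the MSC replicates, which is 4, 1 and 2 counts. In ADM it was at 11.6, 3.39 and 4.38 CPM, and in CDM at 11.6, 2.76 and 1.42 CPM. Replicate 1 was the highest library in both differentiated groups, and the groups' ranges overlapped. Its lowest differentiated library lay 12.3-fold above its highest MSC library. The fitted log2 fold of CDM over MSC was 6.24 and fell to 4.88 without CDM replicate 1.

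Member 3 had 1, 2 and 1 counts in MSC. Its levels were 2.95, 0.439 and 2.01 CPM in ADM and 0.242, 2.54 and 0.760 CPM in CDM. ADM replicate 2 and CDM replicate 1 were the low libraries of their groups, CDM replicate 2 was 5.07 times the mean of the other 2 CDM libraries, and the groups' ranges overlapped. Counting precision limited other members too: 6 of the 30 had under 10 counts in some differentiated library, and 11 had under 10 counts in some MSC library.

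The rule did not compare ADM with CDM, but it used the levels of all 6 of their libraries, through the lowest of them and the group means. The shares of members here and below may thus differ from those of all genes through the choice itself, and they are a description. In edgeR's quasi-likelihood fit of all 9 libraries, with Benjamini-Hochberg adjustment over all 13571 genes, 0 members passed an adjusted p of 0.05 between ADM and CDM in either direction, and 0% of all genes did. At an unadjusted p under 0.05, 9 members were higher in ADM, against 7.33% of all genes, and 0 were lower, against 11.7% of all genes. Without CDM replicate 1, 10 were higher and 5 lower, against 11.6% and 18.3% of all genes. Without CDM replicate 3, 6 were higher and 4 lower, against 5.81% and 13.2%. The calls depended on the test. DESeq2 gave 5 members higher in ADM, where it called 2.83% of the genes it tested, and 0 lower, where it called 4.51%. Limma voom with library weights gave 9 higher, where it called 5.14% of genes, and 0 lower, where it called 3.32%. All 5 DESeq2 members and 8 of the 9 voom members were among the 9 with an unadjusted edgeR p under 0.05. The ninth voom call was member 20, whose edgeR log2 difference was -0.22 and whose CDM mean lay above its ADM mean. Voom gave CDM replicate 2 a weight of 0.163 and ADM replicate 1 a weight of 4.50.

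Those 9 members, numbers 5, 6, 8, 12, 17, 18, 19, 21 and 25, were also the ones in which every ADM library lay above every CDM library. That is 30% of the members, against 15.7% of all genes tested. Every CDM library lay above every ADM library in 3 members, or 10%, against 11.1% of all genes. In the other 18 members the groups overlapped. The mean was higher in ADM for 19 members and higher in CDM for 11. With the CDM mean taken over replicates 1 and 3 alone, these numbers were 21 and 9. Neither count was made over all genes. The fitted log2 difference of ADM and CDM ran from -2.28 to 3.27 with a median of 0.35 over the members, beside -0.07 over all genes. The lowest value was that of member 14, whose ADM mean was 1.31 times its mean over CDM replicates 1 and 3. Without CDM replicate 2 the difference ran from -1.10 to 3.17 with a median of 0.55, beside -0.06 over all genes. In the fit of all 9 libraries, the median absolute size of the difference was 1.01 in the members and 0.61 over all genes. Without CDM replicate 2, a recount made after seeing the data, 13 members had every ADM library above every CDM library, against 20.3% of all genes, and 3 had the reverse order, against 19.9%.

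**Figure D2:**
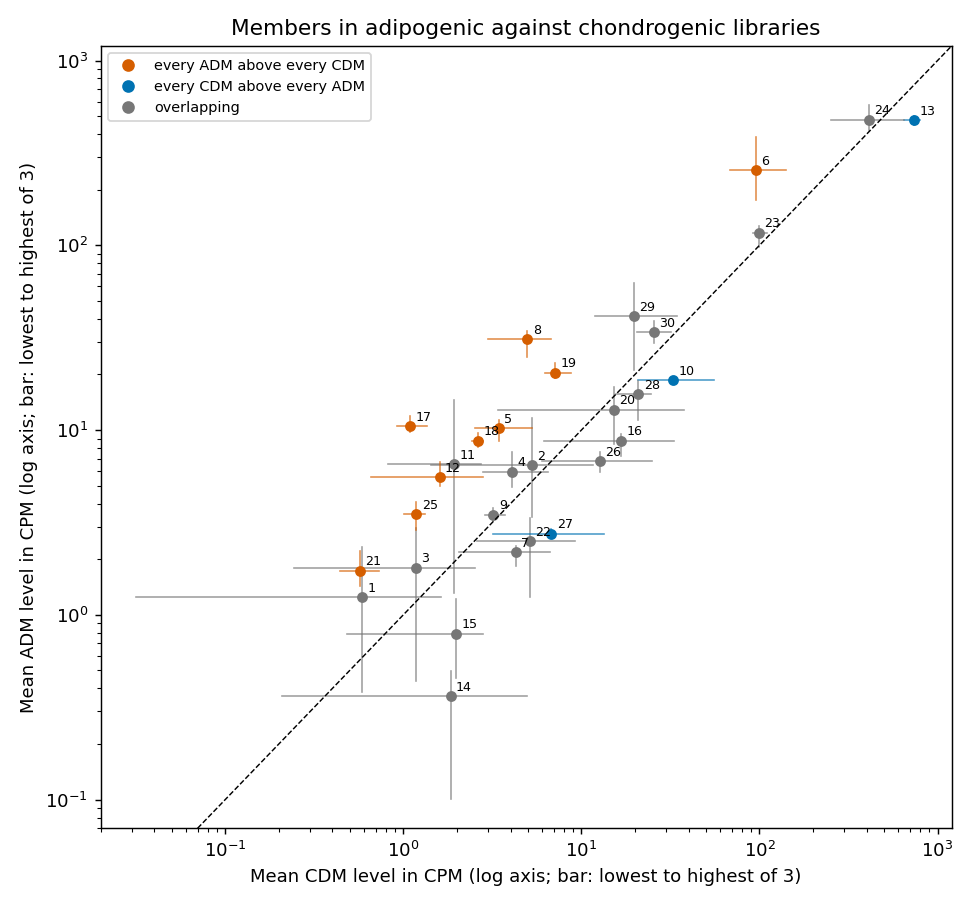
Mean ADM level against mean CDM level of the 30 members in CPM, both on log axes, with bars from the lowest to the highest of the 3 libraries and the member number beside each point; the dashed line marks equal levels. The 9 orange members have every ADM library above every CDM library, and the 3 blue ones the reverse. Horizontal bars are long where 1 CDM library lies apart, such as replicate 2 in members 14 and 20 or replicate 1 in members 1 and 2.

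The 9 members with ADM on top had their CDM level between MSC and ADM, since the rule had placed CDM above MSC. Their ADM mean was 2.68 to 9.68 times their CDM mean, with a median of 3.04. Against MSC, their ratio of means was 7.79 to 28.7 for ADM and 2.55 to 7.75 for CDM. Member 17 (ENSECAG00000004544) had the smallest p of the members. It was at 0.376, 0.530 and 0.375 CPM in MSC, at 1.35, 0.994 and 0.918 CPM in CDM, and at 9.91, 9.80 and 11.9 CPM in ADM. With TMM the 3 groups did not overlap, and the ADM libraries spread over a narrow range. By library totals its ratio of lowest differentiated to highest MSC level was 0.698, so CDM and MSC overlapped. Its lowest CDM counts were few, with 9 in replicate 2. The log2 difference of ADM and CDM was 3.27 (SE 0.42, edgeR adjusted p = 0.141, range over the alternatives 1.66e-12 to 0.546). It passed in DESeq2 (adjusted p = 1.66e-12), in voom (adjusted p = 0.00980) and in edgeR without MSC replicate 3 and CDM replicate 2 (adjusted p = 0.0452).

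Member 8 (ENSECAG00000008063) was at 0.924, 1.06 and 1.27 CPM in MSC, at 6.75, 5.19 and 2.98 CPM in CDM, and at 34.3, 34.3 and 24.8 CPM in ADM. Its lowest ADM library was thus well above its highest CDM library. The log2 difference was 2.65 (SE 0.40, edgeR adjusted p = 0.141, range over the alternatives 3.69e-07 to 0.546), and it passed in DESeq2 and in voom (adjusted p = 3.69e-07 and 0.00980). Members 8 and 17 had ADM means of 31.1 ± 5.46 and 10.5 ± 1.17 CPM against CDM means of 4.97 ± 1.90 and 1.09 ± 0.231 CPM (SD, n = 3 each).

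The remaining 7 of these members had the same order, with a smaller gap between CDM and ADM. Member 6 was at 25.4, 13.4 and 27.7 CPM in MSC, 141, 68.1 and 76.7 CPM in CDM, and 384, 177 and 203 CPM in ADM. In both differentiated groups replicate 1 was highest. Member 19 was at 1.39, 1.33 and 3.64 CPM in MSC, 8.69, 6.41 and 6.24 CPM in CDM, and 23.0, 19.1 and 19.3 CPM in ADM. Member 18 was at 0.260, 0.583 and 1.41 CPM in MSC, 2.63, 2.43 and 2.82 CPM in CDM, and 8.58, 8.08 and 9.65 CPM in ADM. In members 18 and 19 MSC replicate 3 was the highest undifferentiated library by more than 2-fold, while the ADM and CDM libraries were close within each group. Member 5 was at 0.133 to 0.809 CPM in MSC, 2.53 to 5.26 CPM in CDM and 8.72 to 11.4 CPM in ADM. Member 12 was at 0.0577 to 0.376 CPM in MSC, 0.663 to 2.81 CPM in CDM and 4.97 to 6.73 CPM in ADM. Members 21 and 25 were low throughout, at most 0.265 and 0.635 CPM in MSC, 0.727 and 1.33 CPM in CDM, and 2.21 and 4.09 CPM in ADM. The edgeR adjusted p of the 9 members lay between 0.141 and 0.233.

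The 3 members that lay higher in every CDM than in every ADM library were numbers 10, 13 and 27. Member 27 (ENSECAG00000004395) was at 1.04, 1.70 and 1.36 CPM in MSC, at 2.67, 2.66 and 2.93 CPM in ADM, and at 3.78, 13.4 and 3.20 CPM in CDM. Member 10 (ENSECAG00000018783) was at 9.47, 8.54 and 7.91 CPM in MSC, at 19.1, 18.1 and 18.7 CPM in ADM, and at 22.1, 55.6 and 20.8 CPM in CDM. In both, CDM replicate 2 was far above the other CDM libraries with TMM scaling. Those were themselves only slightly above the ADM libraries. By library totals member 27 kept this order and member 10 did not. In member 10 CDM replicate 1, with 637 of 31936658 gene counts, then lay below ADM replicate 3, with 568 of 27625854. The log2 difference of ADM and CDM was -1.29 (SE 0.59, edgeR adjusted p = 0.271) for member 27 and -0.81 (SE 0.40, edgeR adjusted p = 0.299) for member 10. Over the alternatives these adjusted p ran from 0.124 to 0.662 and from 0.130 to 0.741. Without CDM replicate 2 the log2 differences were -0.38 (SE 0.38) and -0.24 (SE 0.22).

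Member 13 had no such outlying CDM replicate 2 with TMM scaling. Its levels were 256, 162 and 199 CPM in MSC, 450, 473 and 499 CPM in ADM, and 795, 769 and 644 CPM in CDM. With TMM the groups did not overlap. By library totals CDM replicate 2, with 6961 of 17260899 gene counts, lay below every ADM library. The lowest of those was ADM replicate 1, with 17855 of 39331930. The log2 difference of ADM and CDM was -0.63 (SE 0.32, edgeR adjusted p = 0.309).

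**Figure D3:**
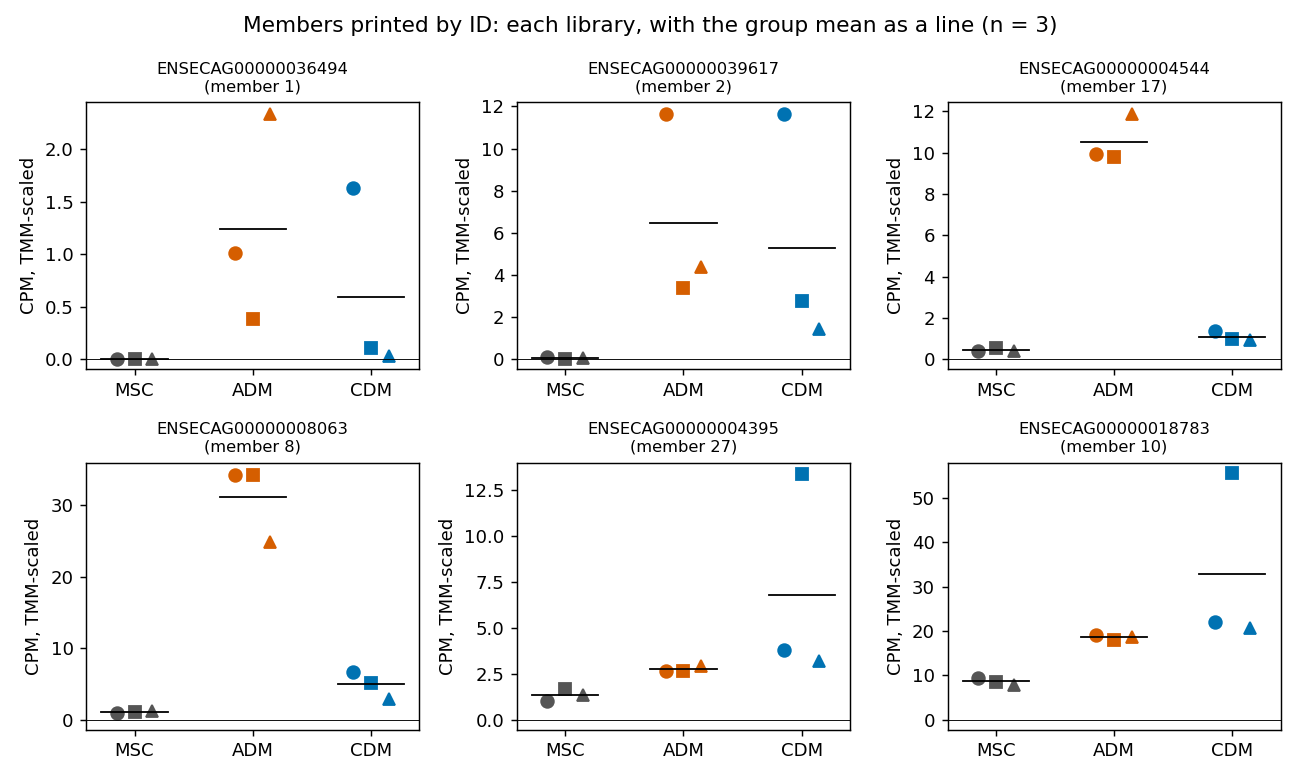
Level in CPM of the 6 members given by ID in each library (circle, square and triangle for replicates 1, 2 and 3; line, group mean of 3 libraries). With TMM, members 17 and 8 show MSC, CDM and ADM in rising order without overlap. Members 1 and 2 are near 0 in MSC and spread widely in ADM and CDM. In members 27 and 10 CDM replicate 2 lies apart at 13.4 and 55.6 CPM.

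A single library was prominent in several members. With TMM, CDM replicate 2 was at least 2 times the highest of the other 8 libraries in 7 members, numbers 10, 14, 16, 20, 22, 26 and 27. That is 23.3% against 13.7% of all genes tested, though the rule used these levels. The TMM factor of 0.525 raises the levels of this library. By library totals the gap was under 2-fold in members 10, 16, 20, 22, 26 and 27 and stayed above it in member 14. Member 14 was at 0.0289 to 0.0578 CPM in MSC, 0.101, 0.497 and 0.494 CPM in ADM and 0.208, 4.97 and 0.348 CPM in CDM, so that only CDM replicate 2 exceeded 1 CPM. It was the 1 member lost when that library was left out. Member 20 was at 0.895 to 2.04 CPM in MSC, 17.2, 13.2 and 8.39 CPM in ADM and 4.19, 37.9 and 3.42 CPM in CDM. Its CDM mean of 15.2 CPM lay above its ADM mean of 12.9 CPM, although CDM replicates 1 and 3 lay below every ADM library. Member 16 had CDM levels of 6.13, 32.9 and 11.3 CPM beside ADM levels of 7.28 to 9.54 CPM. Member 26 had CDM levels of 7.0, 24.96 and 6.02 CPM, of which replicates 1 and 3 were within the ADM range of 5.97 to 7.64 CPM. Member 22 had CDM levels of 3.67, 9.17 and 2.60 CPM beside 3.33, 2.96 and 1.25 CPM in ADM. In 4 members the CDM mean was at least 2 times the ADM mean. This held in 1 of the 30 when CDM replicates 1 and 3 alone were averaged. The share of all genes was counted for neither. The part of library make-up in these values was not tested.

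In 5 members the differentiated groups had similar levels. Member 9 had 3 libraries per group close together, at 1.01, 0.796 and 1.30 CPM in MSC, 3.38, 3.28 and 3.79 CPM in ADM and 3.05, 2.87 and 3.70 CPM in CDM. Its log2 difference of ADM and CDM was 0.12 (SE 0.42, edgeR adjusted p = 0.900). Member 23 was at 43.0, 50.6 and 55.7 CPM in MSC, 126, 97.8 and 127 CPM in ADM and 110, 97.0 and 91.6 CPM in CDM. Its log2 difference of ADM and CDM was 0.23 (SE 0.27, edgeR adjusted p = 0.648). In members 9 and 23 the ranges of ADM and CDM overlapped while the distance to MSC was about the same for both groups. Member 24 was at 127, 74.7 and 156 CPM in MSC, 420, 445 and 571 CPM in ADM and 651, 252 and 329 CPM in CDM, with the widest spread in CDM. Member 28 was at 3.12 to 7.21 CPM in MSC, 11.3 to 18.3 CPM in ADM and 15.7 to 24.6 CPM in CDM. Member 30 was at 9.47 to 13.6 CPM in MSC, 29.4 to 38.9 CPM in ADM and 20.6 to 31.8 CPM in CDM. A p that misses the threshold does not show equal levels, and these 5 were picked after their values were seen.

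The last 5 members varied within the differentiated groups. Member 11 was at 0.265 to 0.433 CPM in MSC, 14.6, 3.69 and 1.32 CPM in ADM and 2.74, 2.21 and 0.823 CPM in CDM, so that ADM replicate 1 stood 3.95-fold above every other library. Member 29 was at 7.83, 1.03 and 5.74 CPM in MSC, 62.6, 39.8 and 21.2 CPM in ADM and 12.5, 34.5 and 12 CPM in CDM. In both genes replicate 1 was the highest ADM library and the groups overlapped. Member 4 was at 0.173 to 0.809 CPM in MSC, 4.95 to 7.57 CPM in ADM and 2.81 to 6.52 CPM in CDM. Member 7 was at 0.115 to 0.751 CPM in MSC, 1.84 to 2.35 CPM in ADM and 2.06 to 6.63 CPM in CDM. Member 15 was at 0.106 to 0.260 CPM in MSC, 0.454 to 1.22 CPM in ADM and 0.485, 2.65 and 2.79 CPM in CDM, with CDM replicate 1 inside the ADM range. The members' spread within groups was near that of all genes. The median coefficient of variation was 34.5% in MSC, 17.5% in ADM and 51.5% in CDM, beside 32.5%, 18.1% and 53.5% over all genes with reads in the group.

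Summed over the 30 members, the level was 503, 347 and 486 CPM in the MSC replicates, 1687, 1445 and 1635 CPM in ADM and 1860, 1502 and 1270 CPM in CDM. Members 6, 13, 23 and 24 held 85.6% of these reads in the differentiated libraries, so the sum follows those 4 genes. Without them the sum was 47.0 to 51.4 CPM in MSC, 233 to 305 CPM in ADM, and 162, 316 and 129 CPM in CDM. With TMM, CDM replicate 2 was thus the highest library of all 9 in the sum over the other 26 members.

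Membership depended on the scaling and on single libraries. With library totals alone in place of TMM, 7 genes met the rule, all of them members (1, 2, 3, 4, 7, 8 and 11). A further 15 members still had all 6 differentiated libraries above all 3 MSC libraries, and 8 did not (12, 17, 18, 21, 23, 24, 25 and 30). Library totals moved the median log2 fold of all genes from 0.04 to -0.45 for CDM over MSC and from -0.03 to -0.26 for ADM over MSC. Relative to that median, the members' median was 2.11 with TMM and 2.02 with library totals for CDM, and 3.01 and 2.98 for ADM. Without the filter on low counts 29 genes met the rule, and members 21 and 24 were lost. With RLE, the size factors of DESeq2, 31 genes met the rule, and all 30 members were among them. Under any of the 3 scalings each of the 30 members had a fitted log2 fold above the median of all genes in both comparisons with MSC, a direction that the choice of members fixes.

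The upper edge of MSC was set by MSC replicate 1 in 16 members (member 1, with no MSC reads, is counted here), by replicate 2 in 6 and by replicate 3 in 8. Over all genes these shares were 30.2%, 32.1% and 37.7%. CDM replicate 3 was the lowest differentiated library in 12 members and CDM replicate 2 in 6, against 14.1% and 38.9% of all genes. The rule used these highest MSC and lowest differentiated levels, so the shares describe the choice of members. Leaving out a library can only loosen the 1.5-fold condition, apart from its effect on scaling and filter. It can also take both group means below 1 CPM. That was the case for member 1 without ADM replicate 3 and for member 14 without CDM replicate 2. The number of genes meeting the rule rose to 137, 41 and 141 when MSC replicates 1, 2 and 3 were left out in turn. It was 53, 88 and 56 without CDM replicates 1, 2 and 3, and 32 or 33 without any 1 ADM library. With both MSC replicate 3 and CDM replicate 2 left out it was 281, of which 28 were members.

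**Figure D4:**
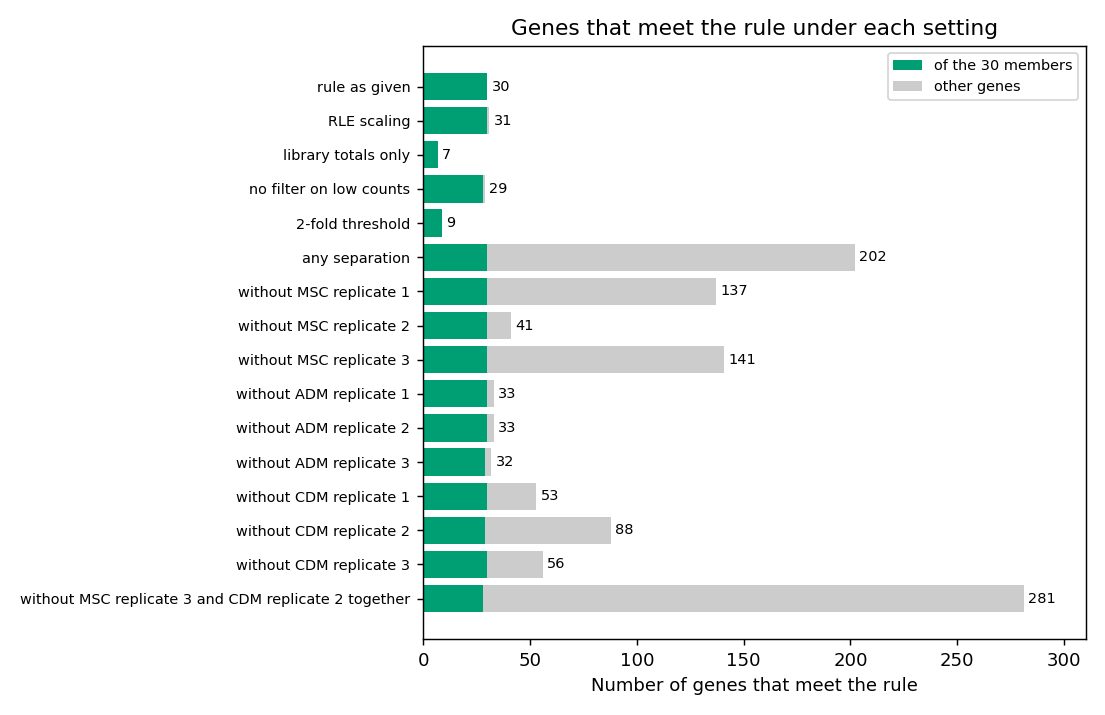
Number of genes that meet the rule under each setting, with the part that belongs to the 30 members in green and other genes in grey. The bar is shortest with library totals alone, at 7 genes, and longest without MSC replicate 3 and CDM replicate 2, at 281 genes, while 29 or all 30 of the members stay in the set whenever 1 library is left out.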

How the data were processed

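Each deposited file holds the authors' raw read counts per gene ID for 1 library, not normalized. Named in the submitters' processing notes are the build equCab3, HTSeq 1.99.2 and STAR 2.7.5c, besides FastQC 0.11.9 and DESeq2 3.16. The sources used here give neither the annotation release nor the strand setting, so reads of a gene and of an antisense or near-identical partner may not be kept apart. The 5 summary lines per file (24.4% to 36.4% of reads) were left out.

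The analysis used edgeR 4.0.16 in R 4.3.3 (filterByExpr, TMM, quasi-likelihood test with a term per group, 6 residual degrees of freedom, 2-sided, Benjamini-Hochberg over 13571 genes, threshold 0.05), DESeq2 1.42.0 and limma 3.58.1. The SE of a log2 difference was taken from the difference and its F statistic. The fit and the rule were run on simulated counts as a check of the code. For the rule these had counting noise only and large folds, unlike these data. The run therefore does not show how reliable the members are. Within-group pairs of libraries differed by a chi-square of 69.2 to 1988 per degree of freedom, which is more than counting noise gives; whether replicates were separate cultures or repeat libraries of 1 culture cannot be read from it.

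Members and lists were chosen with earlier results of these data known. The rule for IDs printed the 2 members with the largest ratio and, for ADM against CDM, the 2 with the smallest p in each direction; its parts that need symbols were not applied. The 24 gene and marker lists matched 0 IDs and were not run. Alternatives covered scaling, filter, threshold, test, replicate block and libraries left out.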

Additional observations from a re-analysis of the deposited data

How the results depend on the processing

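The number of genes meeting the rule was 30 as given, 7 with library totals only, 9 with a 2-fold threshold, 202 with any separation and 281 without MSC replicate 3 and CDM replicate 2, and ranged from 32 to 141 when 1 library was left out. Members with every CDM library above every ADM library numbered 3 (11.1% of all genes had this order), or 1 with library totals (5.23%), and 3 to 6 without 1 library (12.9% to 23.4%), with 5 without CDM replicate 1 (23.4%) and 6 without CDM replicate 3 (15.8%); the cause was not tested. These recounts of separated members, and all fits with library totals, were chosen after seeing the data. Members called higher in ADM than in CDM numbered 0 in edgeR, 5 in DESeq2, 9 in voom with library weights and 1 in edgeR without MSC replicate 3 and CDM replicate 2, a fit that called 0.159% of all genes higher and 0.18% lower, and 0 without any 1 library; 0 were called lower in each of these fits. The log2 difference of ADM and CDM for ENSECAG00000039617 was 0.29, from -0.45 to 1.62 without 1 library (-0.45 without ADM replicate 1, -0.049 without CDM replicate 2 and -0.17 without CDM replicate 3) and -0.037 without MSC replicate 3 and CDM replicate 2; its sign is not fixed and the cause was not tested. The other 5 members given by ID kept their sign between ADM and CDM in all 17 alternatives.

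With the replicate number as a block, 0 members were called in either direction and the members' median log2 difference of ADM and CDM was 0.53 instead of 0.35. Of 9 same-numbered pairs of libraries from different groups, 0 had deviations from the group means that correlated above 0.1 (-0.31 to 0.01). The numbers were therefore not taken as pairs. Differently numbered pairs ran from -0.12 (ADM replicate 1 and CDM replicate 3) to 0.37 (MSC replicate 1 and CDM replicate 3). A link between libraries under other numbers was not tested. Depth limits the members with few reads: 6 had at most 10 counts in every MSC library.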

Other observations

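The 2 genes that met the inequality only as 0 against 0, described after their values were seen, varied between libraries of the same group. One was at 2.98, 2.55 and 1.91 CPM in ADM and at 0.0693, 0 and 15.1 CPM in CDM. The other was at 0.0252, 7.11 and 7.34 CPM in ADM and at 6.55, 0 and 0.0633 CPM in CDM. Both were listed at 0 in all 3 MSC libraries.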
